A study of Mus musculus with 10 samples.

Results

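Nes, Pax6, Sox1, Tubb3, Map2, Zic1, Zic2 and Ncam1 are genes used to follow cells as they take on a neural fate. They were chosen by symbol with earlier results of these data known, so counts of them are not independent of the data. All 8 were found among the 24540 named genes of the count table. The study sequenced polyadenylated RNA of cultured mouse cells, 2 libraries for each of 5 groups and 10 in all. The cells treated with TCDD (the dioxin 2,3,7,8-tetrachlorodibenzo-p-dioxin, which binds the aryl hydrocarbon receptor) were labelled cardiomyocytes and received 5 nM for 24, 72 or 96 h. The control cardiomyocytes received only the solvent DMSO, at no more than 0.05% of the medium, for 24 h. The ES cell group held the untreated, undifferentiated parental embryonic stem cells. All cells were C57BL/6, from a C57BL/6N-C2 line. The line used for differentiation carried a plasmid with puromycin resistance and GFP under the promoter of Nkx2.5, a cardiac transcription factor, with G418 resistance driven by the CMV promoter. It was selected with G418 over several passages as a transfected population. Differentiation used Noggin for 1 day and BMP4 for 2 more days, followed by puromycin, which spares cells with an active Nkx2.5 promoter. The design compared control cardiomyocytes with ES cells and TCDD-treated cells with control cells. Only the 24 h groups matched in time, so TCDD exposure and time in culture cannot be told apart at 72 and 96 h.

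Neural fate arises from early ectoderm when BMP signalling is low, and Noggin, a secreted protein that binds BMP ligands, is a classical neural inducer. Sox1 is among the earliest transcription factors of the neural plate, Pax6 marks radial neural progenitors, and Zic1 and Zic2 are zinc-finger factors of the dorsal neural tube. Nes encodes nestin, an intermediate filament of neural progenitors that muscle precursors, endothelial cells and cardiac cells can also make. Tubb3 (a beta-tubulin) and Map2 (a microtubule-binding protein of dendrites) belong to the neuronal cytoskeleton, and Ncam1 is a cell adhesion molecule of neurons that heart and muscle cells also carry.

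In RefSeq on mouse build GRCm38.p6, Nes lies at chr3:87971093-87980451, Pax6 at chr2:105668896-105698410, Sox1 at chr8:12395519-12399555 and Tubb3 at chr8:123411553-123422015. Map2 lies at chr1:66175202-66442583 and Zic2 at chr14:122475384-122480328, and these 6 genes are on the plus strand. Zic1 (chr9:91358058-91365768) and Ncam1 (chr9:49502129-49799393) are on the minus strand. RefSeq start-site windows, from 250 bases before to 50 bases after a gene's start, were matched for 6 of the 8 genes, in 7 windows, since Pax6 had 2. The start used for Map2 and the second Pax6 start lie inside the gene spans given above, and the other 5 are at the ends of the spans. The windows of Sox1 and Zic1 are shown because these genes passed the test between late and early cultures, and the first Pax6 window because it alone held more than 1 copy of the dioxin response element core. Each is written 5′ to 3′ on the strand of its gene. Capitals mark the octamer ATGCAAAT in Sox1 (chr8:12395269-12395568), the E-box CACGTG in Zic1 (chr9:91365719-91366018) and the core GCGTG in Pax6 (chr2:105668646-105668945).
Sox1: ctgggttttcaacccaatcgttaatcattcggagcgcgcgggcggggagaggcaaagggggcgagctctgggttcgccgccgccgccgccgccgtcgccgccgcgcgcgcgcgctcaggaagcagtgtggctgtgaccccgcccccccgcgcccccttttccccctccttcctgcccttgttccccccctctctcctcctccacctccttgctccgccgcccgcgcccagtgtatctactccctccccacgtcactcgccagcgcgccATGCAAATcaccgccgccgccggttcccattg
Zic1: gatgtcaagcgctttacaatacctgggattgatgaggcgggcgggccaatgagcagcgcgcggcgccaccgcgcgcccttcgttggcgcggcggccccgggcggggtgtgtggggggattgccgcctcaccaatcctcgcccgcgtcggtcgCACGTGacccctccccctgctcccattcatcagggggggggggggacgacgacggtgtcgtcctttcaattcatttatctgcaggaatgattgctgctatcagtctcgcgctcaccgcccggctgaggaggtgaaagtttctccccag
Pax6: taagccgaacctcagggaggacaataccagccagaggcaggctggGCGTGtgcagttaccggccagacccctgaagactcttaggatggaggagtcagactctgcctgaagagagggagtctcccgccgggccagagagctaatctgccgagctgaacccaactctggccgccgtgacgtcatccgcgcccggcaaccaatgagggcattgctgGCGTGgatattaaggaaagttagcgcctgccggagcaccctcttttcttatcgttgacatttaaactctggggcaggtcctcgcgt
The 3 motifs were searched on both strands, and no matches of different motifs overlapped. GCGTG, the core that the aryl hydrocarbon receptor and its partner ARNT bind, stood at 205 and 36 bases before the Pax6 start and at base 41 of Tubb3, and was in 32.4% of all 32851 windows. ATGCAAAT, bound by POU factors such as Oct4, stood at base 19 of Sox1 and was in 1.74% of all windows. CACGTG stood 98 bases before the Zic1 start and was in 7.15% of all windows. The windows of Nes and Map2 and the second Pax6 window held none of the 3. The 7 windows held 16 to 37 CpG dinucleotides each, with 37 in Sox1 and Map2, against a median of 7 over all windows. A match of letters describes the window and not binding.

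The libraries held 15326612 to 31192459 counts, with a count for 17145 to 18392 genes. A count of 0 in a library allows a level of up to 3 counts, which was 0.0962 to 0.196 CPM (counts scaled to library size). This limit covers counting error only, since reads carried no molecular identifiers. Whether the replicates were separate cultures is not said, so each p-value reflects how far these libraries differ, possibly for technical reasons alone. Cyp1a1, the classical target of the aryl hydrocarbon receptor, was at 7.5 to 17.5 CPM in the TCDD libraries, against 0.956 and 1.25 CPM with DMSO. The cells labelled cardiomyocytes had little cardiac RNA, with Nkx2-5 between 1.01 and 3.66 CPM and a summed level of 10 cardiac muscle genes of 40.4 and 44 CPM with DMSO, against 16.3 and 9.99 CPM in ES cells. The sum of 10 pluripotency genes was still 3058 and 2991 CPM with DMSO, against 4561 and 5949 CPM in ES cells. A set of 3 libraries stood apart from the rest. Levels trended with GC content of the transcript over a range of 2.14 on the log2 scale in ES replicate 2 and 1.14 in TCDD 24 h replicate 1, against 0.091 to 0.778 in the others. TCDD 72 h replicate 1 had 11% of its counts on the ribosomal gene Rn45s, against 1.45 to 4.22% in the others. Results are therefore also given without these 3 libraries, where the lone library left in 3 of the groups is assumed to vary like the other groups. In these bulk cultures fewer cells of a type and less RNA per cell cannot be told apart.

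**Figure D1:**
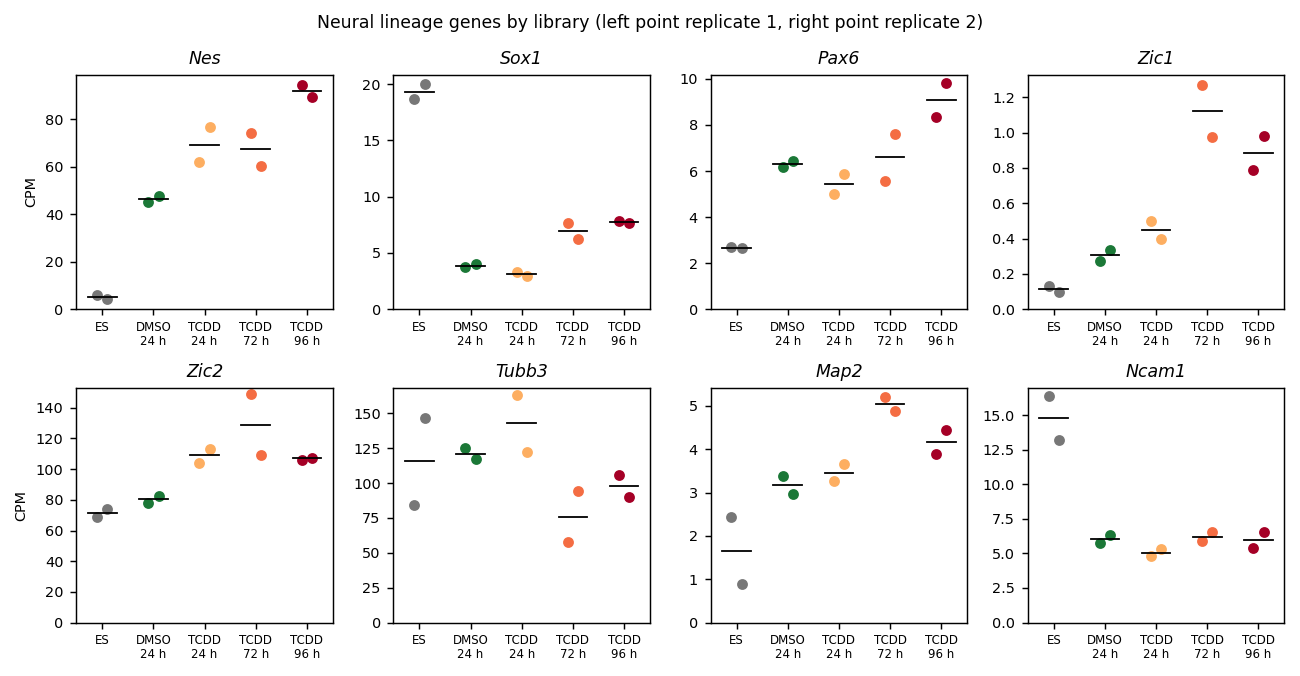
Level of each of the 8 genes in CPM (vertical axis, from 0) in every library of the 5 groups, with replicate 1 as the left point and replicate 2 as the right point. Nes reached 45 CPM or more in every cardiomyocyte library and 6.2 CPM at most in ES cells, while Sox1 and Ncam1 were highest in ES cells.

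Control cardiomyocytes and ES cells differed in 4 of the 8 genes, in both directions. Nes was 8.93-fold higher and Pax6 2.36-fold higher with DMSO, while Sox1 was at 0.2 times and Ncam1 at 0.408 times its ES cell level. These 4 of 8 stand beside 31% of all 15175 genes tested that passed in this comparison at a Benjamini-Hochberg adjusted p under 0.05 (edgeR's quasi-likelihood test), 15.5% higher and 15.5% lower. The median log2 fold change was 0.55 over the 8 genes, with 6 of 8 above 0, and 0.01 over all genes tested. Nes and Sox1, both genes of neural progenitors, moved in opposite directions.

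Of the progenitor genes, Nes had 45 and 47.8 CPM in the DMSO libraries, against 6.2 and 4.16 CPM in ES cells. The groups lay far apart, with a log2 fold change of 3.16 ± 0.26 (SE, adjusted p = 6.82e-05). Sox1 had 3.73 and 4.01 CPM with DMSO, against 18.7 and 20 CPM in ES cells. Both DMSO libraries were thus well below both ES libraries for this neural plate factor, with a log2 fold change of -2.32 ± 0.21 (adjusted p = 0.000118). Pax6 had 6.17 and 6.45 CPM with DMSO, against 2.7 and 2.64 CPM in ES cells. Replicates lay close together at a log2 fold change of 1.24 ± 0.24 (adjusted p = 0.00558), although Pax6 was a low gene in both groups. Zic2, which acts in forebrain midline and dorsal neural tube, had 78.2 and 82.4 CPM with DMSO, against 68.9 and 73.9 CPM in ES cells. That difference of 0.17 ± 0.20 on the log2 scale did not pass (adjusted p = 0.536). Zic1 rested on 9 and 7 counts with DMSO, against 3 and 2 counts in ES cells, or 0.275 and 0.335 CPM against 0.133 and 0.098 CPM. The ES levels were near the limit of a count of 0. The ratio of the pooled counts per library size was 2.56, with a 95% counting interval from 0.898 to 8.95 (exact binomial), and the fitted difference did not pass (adjusted p = 0.112).

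Of the neuronal and adhesion genes, Ncam1 had 5.75 and 6.36 CPM with DMSO, against 16.4 and 13.2 CPM in ES cells. It was lower in both DMSO libraries, at a log2 fold change of -1.29 ± 0.22 (adjusted p = 0.00287). Tubb3 had 125 and 117 CPM with DMSO, against 84.4 and 147 CPM in ES cells. The DMSO libraries lay between the ES libraries, and the difference of 0.06 ± 0.32 did not pass (adjusted p = 0.893). Map2 had 3.39 and 2.96 CPM with DMSO, against 2.44 and 0.882 CPM in ES cells. The groups did not overlap, but the ES libraries lay far apart and the difference of 0.93 ± 0.39 did not pass (adjusted p = 0.0998). Per kilobase of transcript, the scale on which genes can be compared, Tubb3 (64.7 CPM per kb) and Zic2 (32.9) were the most abundant of the 8 with DMSO, followed by Nes (7.57), Pax6 (1.43), Ncam1 (0.922), Sox1 (0.801), Map2 (0.508) and Zic1 (0.0544). In ES cells Sox1 stood at 4 CPM per kb and Nes at 0.846.

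Nes, Pax6, Sox1 and Ncam1 passed in the same direction under each of 21 alternative settings. Without the 3 libraries that stand apart, which leaves 1 ES library, Tubb3 was at 0.51. Map2 was at 1.85 without ES replicate 1 and 0.39 without ES replicate 2. In the first of these fits the ES library left is one that stands apart. With an offset for GC content Map2 passed (edgeR adjusted p = 0.0472), where 41.2% of all genes did. It did not pass with replicate number added as a block. Genes listed as markers of other cell types moved in the same comparison, though Otx2 and Pou3f1 of the epiblast list are also in the neural progenitor list used here. All 6 epiblast genes were higher with DMSO (summed level 905 and 936 CPM, against 208 and 250 CPM in ES cells), as were all 5 smooth muscle genes (593 and 576 CPM, against 5.58 and 7.69 CPM) and 4 of 5 genes of simple epithelium (1368 and 1393 CPM, against 577 and 577 CPM). Of 10 pluripotency genes 1 was higher and 4 were lower. Of 10 cardiac muscle genes 5 were higher and 0 lower, at the low summed levels given above. Over all genes tested 15.5% were higher and 15.5% lower. The markers' part in the values of the neural genes was not tested.

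**Figure D2:**
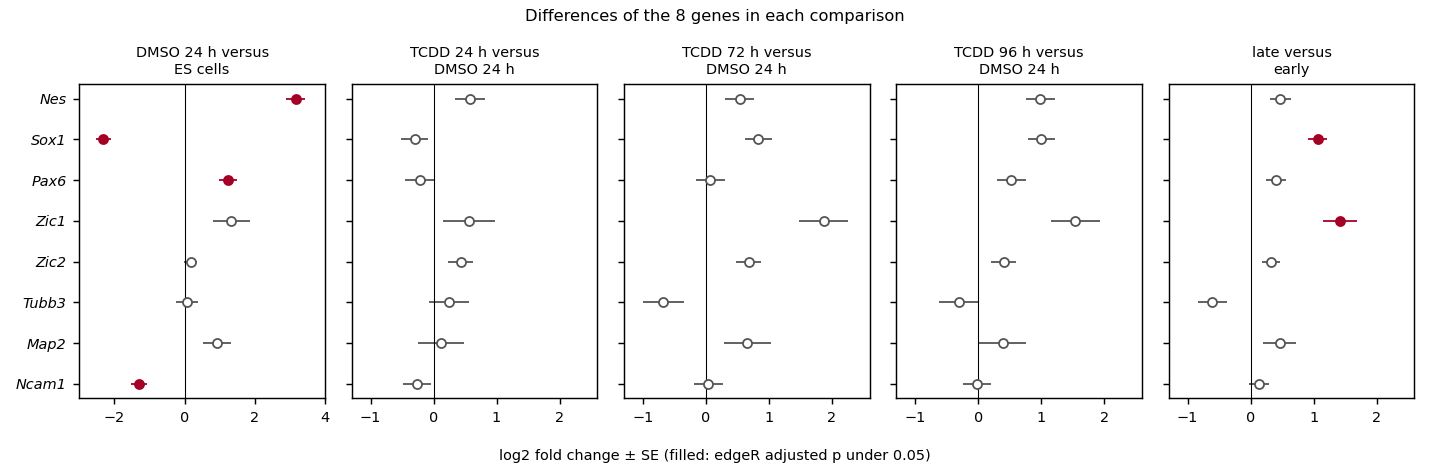
Log2 fold change with its SE (horizontal axis) for each gene in the 5 comparisons, from edgeR on all 10 libraries, with filled points for an adjusted p under 0.05. In control cardiomyocytes versus ES cells 4 genes passed, in each TCDD group versus DMSO none, and in late versus early cultures Sox1 and Zic1; horizontal axes differ between the first panel and the others.

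After 24 h of TCDD, the comparison matched in time, none of the 8 genes passed against DMSO. None of the 15175 genes tested passed in edgeR (0%), where the smallest adjusted p was 0.247. In that test 1296 genes (8.54%) had an unadjusted p under 0.05. Cyp1a1 thus did not pass either, at 9.14 and 7.5 CPM with TCDD against 1.25 and 0.956 CPM with DMSO. The lack of a call therefore does not show that the 8 genes were unchanged. DESeq2 called 14 genes as higher and 27 as lower, and limma-voom called 0. Nes had 61.9 and 76.7 CPM with TCDD, against 45 and 47.8 CPM with DMSO. Both TCDD libraries were higher, with a log2 fold change of 0.58 ± 0.23 (adjusted p = 0.521). Zic2 had 104 and 113 CPM with TCDD, against 78.2 and 82.4 CPM with DMSO. The groups again did not overlap, at 0.44 ± 0.20 (adjusted p = 0.521). Sox1 had 3.3 and 2.97 CPM with TCDD, against 3.73 and 4.01 CPM with DMSO, a difference of -0.30 ± 0.21 (adjusted p = 0.524). Zic1 had 13 and 11 counts with TCDD, against 9 and 7 with DMSO (adjusted p = 0.53). The log2 fold changes of Tubb3, Map2, Pax6 and Ncam1 were 0.24, 0.12, -0.22 and -0.26, with adjusted p from 0.561 to 0.869. Without the 3 libraries that stand apart, Nes (0.73, adjusted p = 0.00483) and Zic2 (0.50, adjusted p = 0.0175) passed, as did 4.98% of all genes. That setting holds 1 TCDD 24 h library.

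After 72 h and 96 h of TCDD, none of the 8 genes passed against the same DMSO libraries, while 0.0461% and 0.0857% of all genes did. At 72 h 0.00659% of genes were higher and 0.0395% lower, and at 96 h 0.0395% were higher and 0.0461% lower. At 72 h the largest differences were in Zic1 (log2 fold change 1.87 ± 0.39, adjusted p = 0.107), Sox1 (0.83 ± 0.21, adjusted p = 0.147), Zic2 (0.68 ± 0.20, adjusted p = 0.183) and Tubb3 (-0.67 ± 0.32, adjusted p = 0.381). Map2 was at 0.66, Nes at 0.54, Pax6 at 0.07 and Ncam1 at 0.04. At 96 h they were in Zic1 (1.54 ± 0.39, adjusted p = 0.143), Sox1 (1.00 ± 0.21, adjusted p = 0.0884) and Nes (0.99 ± 0.23, adjusted p = 0.124). Pax6 was at 0.52, Zic2 at 0.41, Map2 at 0.39, Ncam1 at -0.03 and Tubb3 at -0.30. Both times share the DMSO libraries with each other and with the 24 h comparison. Without the 3 libraries that stand apart, Nes (0.36), Sox1 (0.67), Zic1 (1.67), Zic2 (0.42) and Tubb3 (-0.38) passed at 72 h, with adjusted p from 0.0127 to 0.0481, where 12.8% of all genes passed. At 96 h, in the same setting, these 5 and Pax6 passed, where 28.6% of all genes did. Which genes passed also changed with single libraries left out, as did the share of all genes that passed. Each such fit leaves 1 library in a group. Without TCDD 72 h replicate 2, the library left at 72 h is one that stands apart. In these fits the 72 h log2 fold changes ran from 0.68 to 0.95 (Sox1), 1.68 to 2.04 (Zic1) and 0.43 to 0.87 (Zic2). At 96 h they ran from 0.94 to 1.03 (Nes) and 0.95 to 1.05 (Sox1).

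Setting the late cardiomyocyte cultures (4 libraries at 72 and 96 h, all with TCDD) against the early ones (4 libraries at 24 h, with TCDD or DMSO) gave 2 of the 8 genes past the threshold, Sox1 and Zic1, both higher late. Of all genes tested 1.71% passed, 0.778% higher and 0.929% lower. Sox1 had 7.62 and 6.21 CPM at 72 h and 7.84 and 7.65 CPM at 96 h, against 3.3 and 2.97 CPM with TCDD at 24 h and 3.73 and 4.01 CPM with DMSO. Every late library was above every early one, yet all stayed under the ES libraries, the lower of which had 18.7 CPM. The log2 fold change was 1.07 ± 0.15, or 2.1-fold (edgeR adjusted p = 0.0208). Sox1ot, a noncoding gene that overlaps Sox1 in RefSeq, had 4.89 and 0.887 CPM at 72 h and 0.791 and 0.753 CPM at 96 h. Early libraries had 0.326 to 0.764 CPM of Sox1ot, so only the lowest late library fell within their range. Its part in the Sox1 values was not tested. No source states whether the counting used strand, so reads of overlapping genes may be mixed.

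Zic1 had 20 and 22 counts at 72 h and 24 and 26 counts at 96 h, against 13 and 11 counts with TCDD at 24 h and 9 and 7 with DMSO. In CPM the late libraries lay between 0.791 and 1.27 and the early ones between 0.275 and 0.499, without overlap. The log2 fold change was 1.42 ± 0.27, or 2.68-fold (adjusted p = 0.0411), and the ratio of pooled counts was 2.59, with a 95% counting interval from 1.77 to 3.86. Zic1 entered the test through the group where it was high, since 4 of 4 late but 1 of 4 early libraries reached the filter's minimum and 2 were needed, so its count among the genes that passed is no support by itself. With no filter its adjusted p was 0.0393. Per kilobase of transcript Zic1 was the scarcest of the 8 genes in every group, with 0.2 CPM per kb at 72 h and 0.158 at 96 h, against 0.0801 with TCDD at 24 h and 0.0544 with DMSO.

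Both calls depended on the setting, as did the share of all genes that passed, while the direction of both genes did not. Sox1 lay between 0.99 and 1.14 and Zic1 between 1.33 and 1.5 over 21 alternatives, and 13 and 12 of these kept the call. Zic1 had an adjusted p of 0.0636 with DESeq2 on all libraries. With replicate number as a block, edgeR's adjusted p was 0.0654 for Sox1 and 0.0916 for Zic1. Of all genes 0.132% passed with the block, against 1.71% as reported. For Sox1 the adjusted p was 0.105 without TCDD 24 h replicate 1, 0.079 without its replicate 2, 0.0535 without TCDD 72 h replicate 1, 0.145 and 0.144 without either TCDD 96 h library, and 0.18 and 0.157 without either DMSO library. For Zic1 it was 0.165, 0.149, 0.0666, 0.165, 0.243, 0.273 and 0.225 in the same order.

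The other 6 genes did not pass between late and early cultures. Tubb3 had 57.4 and 94.2 CPM at 72 h and 106 and 90.2 CPM at 96 h, against 163 and 122 CPM with TCDD at 24 h and 125 and 117 CPM with DMSO. Every late library was below every early one, at a log2 fold change of -0.61 ± 0.23 (adjusted p = 0.179). Map2 had 5.2 and 4.88 CPM at 72 h and 3.89 and 4.44 CPM at 96 h, against 3.26 and 3.66 CPM with TCDD at 24 h and 3.39 and 2.96 CPM with DMSO. Every late library was above every early one, at 0.46 ± 0.26 (adjusted p = 0.347). In all, 3 of the 8 genes had late libraries entirely above the early ones and 1 entirely below, beside 7.71% and 9.57% of all genes tested. Nes reached 60.4 to 94.4 CPM late, against 45 to 76.7 CPM early (0.47, adjusted p = 0.156), with 94.4 and 89.5 CPM at 96 h the highest of all libraries. Pax6 was at 5.58 to 9.83 CPM late, against 4.99 to 6.45 CPM early (0.41, adjusted p = 0.207). Zic2 was at 106 to 149 CPM late, against 78.2 to 113 CPM early (0.33, adjusted p = 0.229). Ncam1 was at 5.37 to 6.52 CPM late, against 4.8 to 6.36 CPM early (0.14, adjusted p = 0.648), the narrowest range of the 8 among cardiomyocyte libraries relative to its level. Without the 3 libraries that stand apart, Sox1, Zic1, Nes and Pax6 passed as higher and Tubb3 as lower, where 25% of all genes passed.

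Markers of pluripotent cells moved with the late cultures. The summed level of the 10 genes was 1822 to 2199 CPM late, against 2991 to 3554 CPM early. Of the 10, 3 were lower and none higher, beside 0.929% lower and 0.778% higher over all genes tested. None of the 10 was at 0. The 10 cardiac muscle genes summed to 90.9 CPM in TCDD 72 h replicate 1, which stands apart and where Ttn alone had 65.3 CPM. They summed to 45.4 to 50.9 CPM in the other late libraries, against 37.6 to 44 CPM early. None of these 10 passed, beside 1.71% of all genes tested. The part of these markers in the Sox1 and Zic1 values was not tested.

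**Figure D3:**
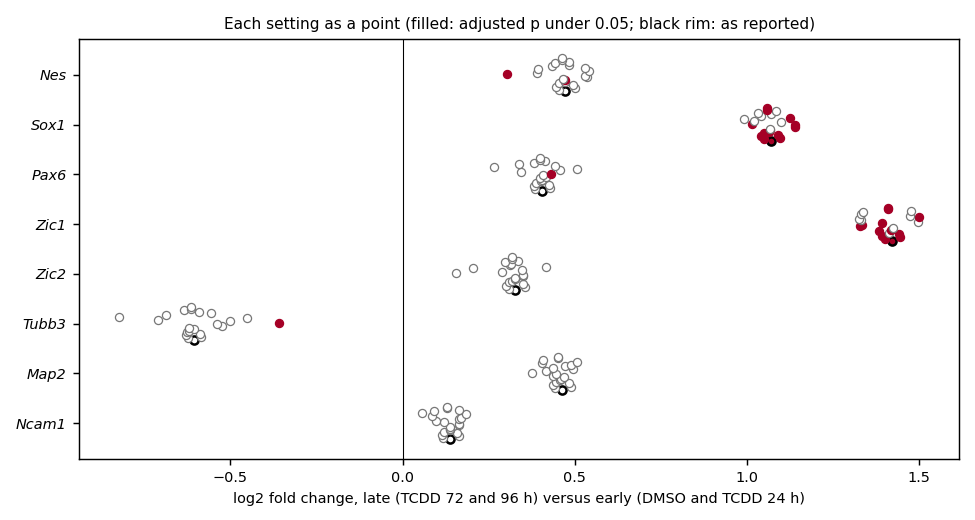
Log2 fold change of each gene between the late and early cultures (horizontal axis) as reported and under each of 21 alternative settings, 1 point each, filled where the adjusted p was under 0.05. Sox1 stayed between 0.99 and 1.14 and Zic1 between 1.33 and 1.5, with filled and open points for both.

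Across the 5 groups the 8 genes took different orders. For Nes the group means ran ES cells (5.18 ± 1.44 CPM, SD, n = 2), DMSO (46.4 ± 1.96), TCDD 72 h (67.4 ± 9.95), TCDD 24 h (69.3 ± 10.4) and TCDD 96 h (91.9 ± 3.49), a range of 17.7-fold. The 72 h and 24 h means differed by less than their SD. Sox1 ran the other way at its top end, with TCDD 24 h (3.14 ± 0.234), DMSO (3.87 ± 0.202), TCDD 72 h (6.91 ± 0.997), TCDD 96 h (7.74 ± 0.138) and ES cells (19.3 ± 0.973). Its 72 h and 96 h means differed by less than the SD at 72 h. Pax6 ran ES cells (2.67 ± 0.0413), TCDD 24 h (5.43 ± 0.62), DMSO (6.31 ± 0.197), TCDD 72 h (6.6 ± 1.44) and TCDD 96 h (9.08 ± 1.06), where the DMSO and 72 h means differed by less than the SD at 72 h. Zic1 ran ES cells (0.115 ± 0.0247), DMSO (0.305 ± 0.0421), TCDD 24 h (0.449 ± 0.0712), TCDD 96 h (0.885 ± 0.133) and TCDD 72 h (1.12 ± 0.208). Its 96 h and 72 h means differed by little more than the SD at 72 h. Zic2 ran ES cells (71.4 ± 3.5), DMSO (80.3 ± 2.96), TCDD 96 h (107 ± 0.905), TCDD 24 h (109 ± 6.56) and TCDD 72 h (129 ± 28.5), where the 3 TCDD means differed by less than the SD at 72 h. Tubb3 ran TCDD 72 h (75.8 ± 26), TCDD 96 h (98.2 ± 11.4), ES cells (116 ± 44.5), DMSO (121 ± 5.07) and TCDD 24 h (143 ± 28.8). Each of its neighbours in that order lay within the SD of 1 of the pair. Map2 ran ES cells (1.66 ± 1.1), DMSO (3.18 ± 0.304), TCDD 24 h (3.46 ± 0.279), TCDD 96 h (4.17 ± 0.394) and TCDD 72 h (5.04 ± 0.232), where the DMSO and TCDD 24 h means differed by less than the SD with DMSO. Ncam1 ran TCDD 24 h (5.04 ± 0.346), TCDD 96 h (5.94 ± 0.81), DMSO (6.05 ± 0.432), TCDD 72 h (6.21 ± 0.434) and ES cells (14.8 ± 2.27), where the 3 middle means differed by less than an SD.

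Levels varied widely within the protein families of these genes, and some relatives were near them. Among beta-tubulins, levels per kilobase with DMSO were 920 CPM per kb for Tubb5 and 466 for Tubb4b, both widely expressed, against 64.7 for Tubb3, 56.2 for Tubb6, 48.4 for Tubb2b, 8.48 for Tubb2a and 4.25 for Tubb4a. In ES cells Tubb3 was at 62 CPM per kb, Tubb2b at 131, Tubb2a at 32.3 and Tubb4a at 1. Of 7 beta-tubulins tested, Tubb3 among them, Tubb4a was higher with DMSO than in ES cells (2.08 ± 0.30, adjusted p = 0.00112), while Tubb2a (-1.93 ± 0.30, adjusted p = 0.00178) and Tubb2b (-1.44 ± 0.25, adjusted p = 0.0029) were lower. These calls stand beside 15.5% higher and 15.5% lower over all genes tested. Beta-tubulins are close in sequence, so counts of related members may be uncertain. Between late and early cultures none of the 7 passed, beside 1.71% of all genes tested, with 5 of 7 log2 fold changes below 0.

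Of the Zic family, Zic2 was at 32.9 CPM per kb with DMSO, Zic5 at 4.36, Zic1 at 0.0544, and Zic4, which lies next to Zic1 and overlaps it in RefSeq, had at most 1 count in a library. In ES cells Zic2 was at 29.3 CPM per kb and Zic5 at 2.45. Zic5 did not pass between DMSO and ES cells (0.83 ± 0.37, adjusted p = 0.119), and between late and early cultures it was at 0.18 (adjusted p = 0.73). Of the microtubule-associated genes, Map4 (46.3 CPM per kb with DMSO, 76.8 in ES cells), Map1a (1.77 and 8.19) and Mapt, which encodes tau (2.47 and 11.7), were lower with DMSO, and Map1b (7.67 and 2.59) was higher. Map2, at 0.508 and 0.265 CPM per kb, was the scarcest of the 5 in both groups.

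**Figure D4:**
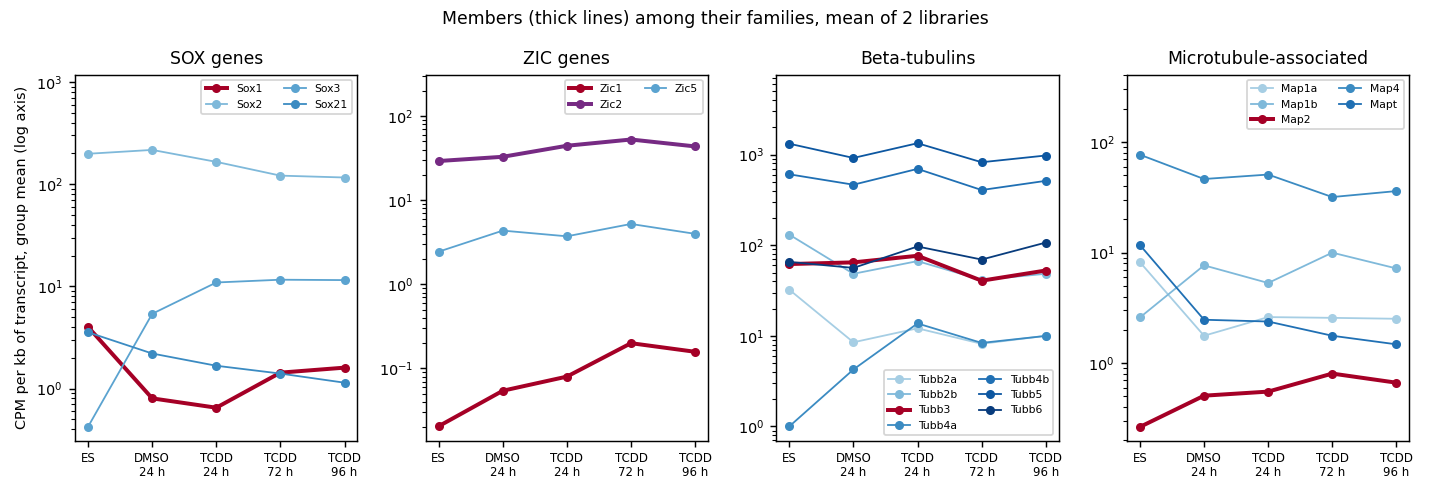
Mean level of 2 libraries per group, in CPM per kilobase of transcript on a log axis, for the members (thick lines) and other named genes of their families over the 5 groups. Tubb3 lay below Tubb5 and Tubb4b in every group, and Zic1 lay below Zic2 and Zic5 in every group.

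Other genes of the neural pathway were counted in lists chosen for the lineage, without the 8 genes. These lists too were chosen with earlier results of these data known. Of 32 tested genes of neuroectoderm and neural progenitors (of 36 listed), 12 were higher and 3 lower with DMSO than in ES cells, with a median log2 fold change of 0.85, or 0.82 with 3 genes at 0 in ES cells set at the limit of 3 counts over the group. These and the counts of the other lists in this comparison stand beside 15.5% higher and 15.5% lower over all genes tested. Pou3f1, a POU factor of epiblast and neural precursors, had 107 and 111 CPM with DMSO, against 3.46 and 4.41 CPM in ES cells (4.80 ± 0.22, adjusted p = 1.05e-05), and Prom1, the progenitor surface protein prominin, had 19.8 and 19.8 CPM, against 0.886 and 0.833 CPM (4.52 ± 0.23, adjusted p = 1.44e-05). The Sox1 relatives differed from Sox1 in level, with Sox3 at 5.38 CPM per kb with DMSO, against 0.423 in ES cells, and Sox2, which pluripotent cells also need, at 216 against 198. Of 30 tested proneural and neuronal genes (of 37), 18 were higher and 4 lower, with a median of 1.57. Ina, a neuronal intermediate filament, was at 3.66 ± 0.22 (adjusted p = 2.22e-05) and Insm1, a factor of neuroendocrine and neuronal differentiation, at 5.09 ± 0.35 (adjusted p = 3.15e-05), though on 8 and 3 counts in ES cells. With DMSO 12 of the 36 progenitor genes averaged over 10 CPM and 17 under 1 CPM, and 13 of the 37 neuronal genes averaged over 10 CPM and 10 under 1 CPM. Among those under 1 CPM in every group, picked after their values were seen, the neuronal gene Dcx averaged 0.225 CPM or less, the proneural factor Neurog2 0.221 or less, and the progenitor genes Fabp7 and Hes5 0.361 or less and 0.327 or less.

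Of 13 tested neural crest genes (of 14), 7 were higher and 1 lower with DMSO (median 1.63), with the smallest p in Msx2 (4.03 ± 0.25, adjusted p = 2.62e-05), a homeobox target of BMP signalling, and Ets1 (4.68 ± 0.41, adjusted p = 0.000101). Of 11 tested glial genes (of 12), 1 was higher and 2 lower (median -0.53), with the myelin gene Mbp at 2.79 ± 0.23 (adjusted p = 6.82e-05) and Aldh1l1 at -2.64 ± 0.40 (adjusted p = 0.00158). Of 16 tested genes of BMP signalling and neural induction (of 17), 5 were higher and 2 lower (median 0.33). Bmp2, a ligand, had 3.21 and 3.97 CPM with DMSO, against 0.133 and 0.147 CPM in ES cells, which is 3 counts in each ES library. Nog, which encodes Noggin itself, had 3.42 and 3.97 CPM with DMSO, against 0.266 and 0.196 CPM in ES cells (3.96 ± 0.34, adjusted p = 8.78e-05). None of 9 repressors of neuronal genes passed (median 0.09), with Rest, the repressor of neuronal genes outside neurons, at 0.37 ± 0.34 (adjusted p = 0.432) and the splicing repressor Ptbp1 at -0.26 ± 0.25 (adjusted p = 0.435).

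Against DMSO, no gene of these 6 lists passed after TCDD for 24 or 72 h. At 96 h only Nefm, a neurofilament subunit, did, at 2.01 ± 0.23 (adjusted p = 0.0246). These counts stand beside 0%, 0.0461% and 0.0857% of all genes tested at 24, 72 and 96 h. Between late and early cultures 1 progenitor gene was higher and none lower (median 0.31), 2 neuronal genes were higher and 1 lower (0.10), 2 neural crest genes were higher (0.28), 2 BMP genes were higher (-0.04), and no glial gene (0.15) or repressor (-0.34) passed, beside a median of 0.05 and shares of 0.778% higher and 0.929% lower over all genes. Nefm had 7.71 to 11.8 CPM late, against 2.82 to 3.99 CPM early, without overlap (1.61 ± 0.16, adjusted p = 0.00734). Nrcam, an adhesion molecule of axons, was at 1.32 ± 0.23 (adjusted p = 0.0355) and Prom1 at 0.73 ± 0.13 (adjusted p = 0.0355). The neuronal gene that was lower, named after its values were seen, was Stmn2 at -0.68 ± 0.13 (adjusted p = 0.0441), a microtubule regulator of growth cones. In the crest list Msx1 was at 1.92 ± 0.23 (adjusted p = 0.012) and Dlx5 at 1.77 ± 0.33 (adjusted p = 0.0385), and in the BMP list Id1, a direct target of BMP signalling, was at 0.88 ± 0.16 (adjusted p = 0.0355) and Fst, which encodes the activin antagonist follistatin, at 1.35 ± 0.27 (adjusted p = 0.0498). Fst was at 17.6 CPM in TCDD 72 h replicate 1 and 6.83 CPM in replicate 2. Sox2 (-0.67 ± 0.14, adjusted p = 0.0548), Mbp (-0.57 ± 0.15, adjusted p = 0.0851), Pdgfra (1.01 ± 0.27, adjusted p = 0.0928), Rcor2 (-0.76 ± 0.19, adjusted p = 0.0774) and Ehmt2 (-0.66 ± 0.19, adjusted p = 0.107) did not pass.

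**Figure D5:**
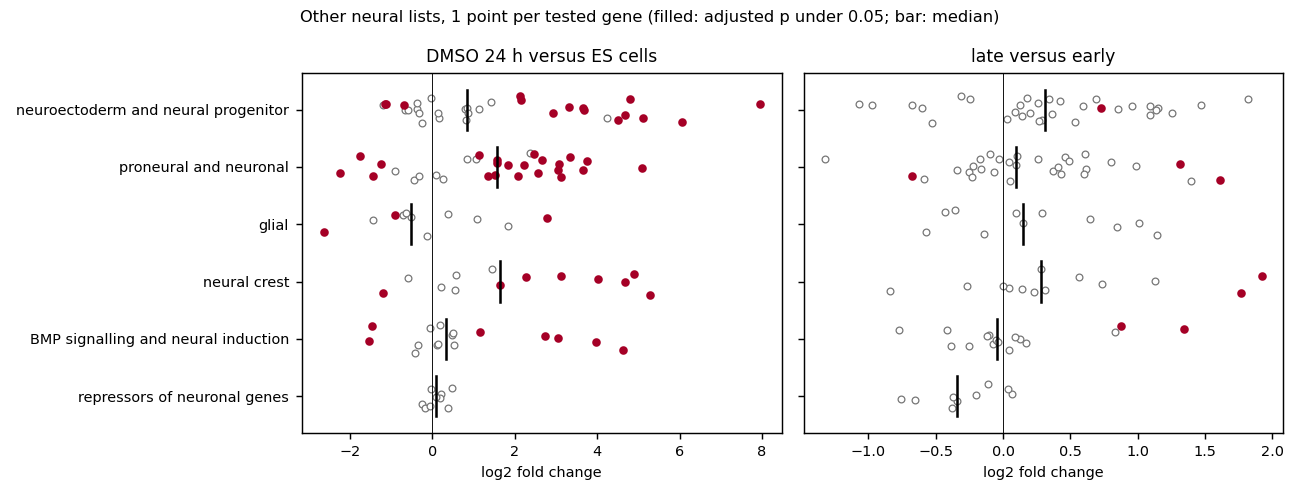
Log2 fold change (horizontal axis) of each tested gene in 6 other neural lists, 1 point per gene, filled where the adjusted p was under 0.05, with a bar at the list's median. In control cardiomyocytes versus ES cells the medians ran between -0.53 (glial) and 1.63 (neural crest), and in late versus early cultures between -0.34 (repressors) and 0.31 (progenitors).

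The 8 genes did not move as a block among themselves. Over the 8 cardiomyocyte libraries the Pearson r of log2 CPM was 0.578 between Nes and Sox1, against -0.756 over all 10 libraries, and 0.599 between Pax6 and Ncam1, against -0.788, so the sign turned with the ES libraries included. Over the same 8 libraries, every pair of Nes, Sox1, Map2, Zic1 and Zic2 was above 0, from 0.479 (Sox1 and Zic2) to 0.904 (Map2 and Zic1). Tubb3 was below 0 with every other gene, from -0.839 (Map2) to -0.264 (Pax6). The other pairs with Pax6 or Ncam1 had both signs. These points share libraries and groups, and depth differs between them. Among 10370 or 10371 other genes with a mean of at least 5 CPM, those most like Nes over the 10 libraries were Ankrd50 and Emb (r = 0.9952 each). Sox1 was nearest to Hinfp (0.9726) and Zfp423 (0.9708), Pax6 to Serf1 (0.9806) and Id2 (0.9767), and Zic2 to Zmynd8 (0.9912) and Iqsec1 (0.9592). Tubb3 was nearest to Ctdp1 (0.9805) and Tnip1 (0.9763), Map2 to Plekha1 (0.9777) and Cadm1 (0.9717), and Ncam1 to Pros1 (0.9832) and Plce1 (0.9828). Each of these r includes the ES libraries, and none was computed for these neighbours over the 8 cardiomyocyte libraries alone. Zic1, under 1 CPM in 4 groups, was not ranked.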

How the data were processed

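The authors deposited 1 table of raw counts per gene, not normalized, for 10 libraries. Per the labels' protocols, RNA came from TRIzol extraction, and its polyadenylated fraction went into dUTP stranded libraries for single-read sequencing. Per the submitters' processing notes, the genome was mm10 and the tools included TopHat, bcl2fastq, CASAVA 1.8 and edgeR. How reads were counted, with which annotation and strand setting, was not given in the sources used here. A row without a gene name (0.000201 to 0.00285% of counts) was left out.

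Tests used the quasi-likelihood method of edgeR 4.0.16 under R 4.3.3, with TMM factors, filterByExpr, robust dispersion and a mean for each group, fitted to all 10 libraries. All 8 genes were among the 15175 tested, Zic1 mainly through its later libraries, with 5 residual degrees of freedom. A gene passed where its two-sided p, adjusted by Benjamini-Hochberg over all genes of a comparison, was under 0.05. CPM used TMM-scaled library sizes, the limit of 3 counts used library totals, and log2 CPM a prior count of 2. Levels per kilobase used the longest GENCODE transcript. The script was tested on simulated data. Coordinates and windows came from RefSeq GRCm38.p6, matched by Entrez identifier. Named genes were the 8, the 2 most alike per gene by r, and from each list the 2 with the smallest p in DMSO versus ES cells and in late versus early cultures, with family members by level. Sox3, Dcx, Neurog2, Fabp7, Hes5, Stmn2 and Ttn fall outside this rule and were named after their values were seen. A gene that the rule names is not reported here. Members and lists were chosen with earlier results of these data known. Alternatives were RLE and upper-quartile factors, no filter, 1 CPM in 2 libraries, DESeq2 1.42.0, limma-voom (limma 3.58.1), only the groups compared, replicate number as a block, a loess offset for GC content (span 0.3), both together, removal of the 3 libraries that stand apart, and each library left out in turn.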

Additional observations from a re-analysis of the deposited data

How the results depend on the processing

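Of 8 genes, 4 passed in DMSO versus ES cells and 4 or 5 under every alternative. Without the 3 libraries that stand apart 2 genes passed at TCDD 24 h (Nes, Zic2), 5 at 72 h, 6 at 96 h and 5 between late and early cultures. With the GC offset 1 passed at 72 h (Zic1) and 1 at 96 h (Sox1), where 2.95% and 4.11% of all genes did. With DESeq2 1 passed at 96 h (Nes) and 1 between late and early cultures (Sox1, as Zic1 had an adjusted p of 0.0636). Of all genes 1.67% and 4.82% passed there. With only the groups compared in the fit 6 passed at 96 h and 3 between late and early cultures (Nes besides Sox1 and Zic1). The shares of all genes in these 2 comparisons were 29.9% and 8.71%. Leaving out 1 library gave 0 to 3 genes at 72 h, 0 to 2 at 96 h, and 0 to 2 between late and early cultures. The share of all genes that passed moved with them, between 11.9% (without DMSO replicate 2) and 52.1% (without the 3 libraries) in DMSO versus ES cells, 0 and 4.98% at 24 h, 0 and 12.8% at 72 h, 0 and 29.9% (only the groups compared) at 96 h, and 0 and 25% between late and early cultures. The fits also differed in degrees of freedom, and the cause of these moves was not tested. Differences between replicates 1 and 2 correlated between groups from -0.755 (TCDD 24 h and ES cells) to 0.448 (TCDD 24 h and 96 h). The TCDD 24 h and ES groups each hold a library with a strong GC trend. These correlations therefore cannot show whether the numbers pair the libraries. With replicate number as a block 0 genes passed between late and early cultures (Sox1 adjusted p 0.0654, Zic1 0.0916), and with the GC offset added both did (0.011 and 0.0436).

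Tubb3 at TCDD 24 h turned to -0.04 with the GC offset, alone (-0.0434) or with the block (-0.0439). Leaving out 1 library turned the sign of values that had not passed. Tubb3 in DMSO versus ES cells ran between -0.28 and 0.52, Pax6 at 72 h between -0.20 and 0.27, Ncam1 at 72 h between -0.059 and 0.11 and at 96 h between -0.17 and 0.10. No other sign turned. Zic1 is limited by its low counts, and the filter removed it from DMSO versus ES cells where only these groups were in the fit.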
